A study of Mus musculus with 2 samples.

Results

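The genes of the mitochondrial ribosomal proteins were followed in small hepatocytes (SHs) and mature hepatocytes (MHs) of the mouse. They were taken by symbol, as Mrpl or Mrps followed by a number and at most 1 letter, a rule that uses no measured value. This gave 77 of the 43280 gene symbols in the files, 48 with a large subunit symbol (Mrpl) and 29 with a small subunit symbol (Mrps). Poly(A) RNA was sequenced from 1 library of each kind of hepatocyte, both from C57BL6 mice whose labels give an age of 20 weeks, whereas the methods of the study give a younger range. Both kinds of cell were taken from the livers of the same mice by collagenase perfusion, and neither the labels nor the methods state a treatment or an altered gene. A slow spin pelleted the MHs and left the SHs, which the study regards as hepatocyte progenitors of the adult liver, in the supernatant. Percoll then removed dead cells from each. SHs were further sorted as cells that lacked CD31, CD45 and EpCAM and carried ICAM-1, and the labels state no sort of MHs. The methods name several mice but do not state whether their cells were pooled. The question was whether the 2 kinds of hepatocyte differ in the expression of this machinery, and whether its large and small subunits differ alike.

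The mitochondrial ribosome sits in the mitochondrial matrix and translates the few mRNAs that the mitochondrial genome encodes, all of which yield subunits of the respiratory chain and the ATP synthase. Its RNAs come from the mitochondrial genome, whereas its proteins are encoded in the nucleus, made in the cytosol and imported. Some of these proteins descend from those of the bacterial ribosome, and others are found in mitochondria only. Hepatocytes are rich in mitochondria, in which steps of the urea cycle, fatty acid oxidation and gluconeogenesis take place.

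Counted reads numbered 16979136 in MHs and 42356444 in SHs. Levels are reads per 1000000 counted reads of the same library (RPM). Ratios are log2 values of RPM in SHs over RPM in MHs, with 0.5 added to both read numbers. A ratio's 95% interval (Clopper-Pearson) comes from how a gene's reads divide between the libraries. With 1 library per kind of cell there was no replicate and no test, and the intervals cover counting error only, without molecular identifiers. In RNA of whole cell preparations, fewer cells of a type and less RNA per cell cannot be told apart. All 8 hepatocyte markers had reads in both libraries, with a summed level of 77190 RPM in MHs and 82105 in SHs. Alb alone held 55706 and 60855 of these. The interval lay above 0 for 5 of the 8 markers and under 0 for 3. The 29 markers of non-parenchymal types (endothelial, macrophage, stellate) went from a summed 142.4 RPM in MHs to 8.45 in SHs. The interval lay under 0 for 25 of the 26 with at least 10 reads, and Lyve1 and Marco had 0 reads in SHs. Of the genes of the sort, reads in MHs against SHs numbered 73 and 8 for Pecam1 (CD31), 9 and 5 for Ptprc (CD45), 6 and 1 for Epcam, and 130 and 276 for Icam1. Scaled for depth, the level of Icam1 was 7.66 RPM in MHs against 6.52 in the sorted SHs, a log2 ratio of -0.24 (-0.54 to 0.08). The sort selected for ICAM-1 protein, which mRNA levels do not measure, so this ratio does not show how the sort performed. The 8 markers of the pericentral zone (ZONE3) had a median log2 ratio of -1.83 and the 8 of the periportal zone (ZONE1) one of 0.47. The part of other cells and of the zones in the values below was not tested.

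RefSeq promoters of GRCm38.p6, from 250 bases before to 50 bases after a start site, were at hand for 68 of the 77 genes, with 74 promoters in all. No entry was used for Mrpl13, Mrpl15, Mrpl19, Mrpl38, Mrpl4, Mrpl54, Mrps28, Mrps34 and Mrps35. Nuclear genes of mitochondrial proteins are known targets of the factors NRF1 and GABP, the latter of which binds ETS motifs. The ETS motif CCGGAAG was present on either strand in 25 of the 74 promoters, or 33.8%, against 18.9% of 8710 promoters of genes with at least 200 reads and 8.86% of all 32851 promoters. It was found in 14 of 47 promoters of large subunit symbols and in 11 of 27 of small subunit symbols. Its shorter core CGGAAG, which every CCGGAAG contains, was present in 52.7% of the members' promoters and in 32.8% of those of genes with at least 200 reads. An NRF1 motif, GCGCA and GCGC with any 1 base between them, was present in 13 of the 74, or 17.6%, against 10.9% and 4.6%. The YY1 motif AAGATGGCG was present in 8, or 10.8%, against 3.57% and 1.40%. The GC box GGGCGG was present in 52.7% of the members' promoters, less often than the 63.4% of genes with at least 200 reads and more often than the 35.7% of all promoters. TATAAA, the motif of the TATA-binding protein, was present in 6.76% of the members' promoters, against 7.36% and 13.6%. CCAAT, the NF-Y motif, was present in 40.5%, against 37.2% and 37.4%, and the E-box CACGTG in 9.46%, against 10.5% and 7.15%. These matches describe the letters of the window and show no binding.

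**Figure D1:**
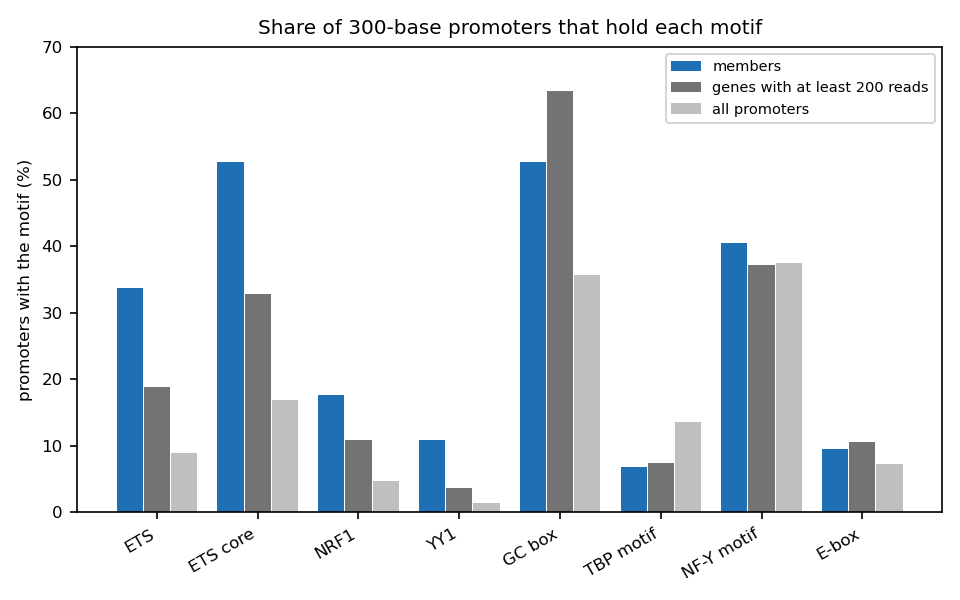
Share of promoters (vertical axis, in %) that hold each motif on either strand, for the 74 promoters of members, 8710 promoters of genes with at least 200 reads and all 32851 promoters. The ETS bar of the members stands at 33.8% and that of genes with at least 200 reads at 18.9%, whereas the GC box of the members, at 52.7%, lies between the 63.4% of genes with at least 200 reads and the 35.7% of all promoters.

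A few stretches before the start site are shown as examples, with ETS or NRF1 motifs in capitals. They are printed 5′ to 3′ on the strand of the gene, and each is the longest part of the 250 bases that no annotated exon covers. Mrpl43 (chr19:45006443-45006557, minus strand) holds the ETS motif at 2 places, and Mrpl45 (chr11:97315466-97315715, plus strand) holds the NRF1 motif at 2 places. Mrpl12 (chr11:120484387-120484612, plus strand) is the member with the most reads. Mrpl22 (chr11:58171414-58171660, plus strand) is among the highest in ratio, and Mrps22 (chr9:98601680-98601929, minus strand) and Mrps27 (chr13:99344706-99344785, plus strand) stand for the small subunit.
Mrpl43: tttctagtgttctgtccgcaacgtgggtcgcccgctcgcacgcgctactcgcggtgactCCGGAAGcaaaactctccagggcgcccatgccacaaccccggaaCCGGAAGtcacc
Mrpl45: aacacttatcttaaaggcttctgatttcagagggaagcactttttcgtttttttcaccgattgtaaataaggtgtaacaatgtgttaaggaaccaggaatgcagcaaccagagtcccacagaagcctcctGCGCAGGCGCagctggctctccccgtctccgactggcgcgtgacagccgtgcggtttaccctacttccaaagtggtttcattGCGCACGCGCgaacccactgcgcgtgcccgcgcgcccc
Mrpl12: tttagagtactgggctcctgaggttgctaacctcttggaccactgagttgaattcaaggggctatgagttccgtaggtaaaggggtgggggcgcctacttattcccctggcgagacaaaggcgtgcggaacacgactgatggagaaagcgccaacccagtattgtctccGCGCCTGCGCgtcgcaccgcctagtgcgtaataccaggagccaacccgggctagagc
Mrpl22: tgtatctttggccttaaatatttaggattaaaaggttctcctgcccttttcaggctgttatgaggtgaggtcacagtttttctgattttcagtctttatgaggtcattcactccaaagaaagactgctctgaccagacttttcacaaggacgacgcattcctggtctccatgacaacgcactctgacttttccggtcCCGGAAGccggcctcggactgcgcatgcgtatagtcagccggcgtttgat
Mrps22: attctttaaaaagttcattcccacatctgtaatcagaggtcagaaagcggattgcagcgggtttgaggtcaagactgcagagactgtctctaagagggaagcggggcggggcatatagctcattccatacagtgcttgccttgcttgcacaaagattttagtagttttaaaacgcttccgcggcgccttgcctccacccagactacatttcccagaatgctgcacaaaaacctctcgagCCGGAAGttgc
Mrps27: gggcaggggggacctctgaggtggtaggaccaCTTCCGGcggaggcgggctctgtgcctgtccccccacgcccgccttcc
Ratios were then compared between genes with and without a motif, as a description. The 24 genes with the ETS motif and at least 10 reads had a median log2 ratio of 0.11 and the 43 without it one of 0.09. For the NRF1 motif, the medians were 0.09 for 13 genes with it and 0.09 for 54 without it.

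The mitochondrial ribosomal protein genes were expressed in both libraries, and as a group they were slightly higher in SHs. Together they took 25647 reads in MHs and 68910 in SHs, which is 0.151% of the counted reads in MHs and 0.163% in SHs. The log2 ratio of these sums was 0.11 (95% interval 0.09 to 0.13). Of the 77 genes, 76 had at least 10 reads over both libraries, with a median of 297.5 reads in MHs and 767 in SHs. Their median log2 ratio was 0.09, beside 0.02 for all 15521 genes with at least 10 reads and 0.03 for the 9608 with at least 200 reads. The ratio was above 0 for 56 of the 76 genes, or 73.7%, against 52% of all genes with at least 10 reads.

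Most members had ratios close to 0. The interval lay wholly above 0 for 26 of the 76, or 34.2%, against 16.8% of all genes with at least 10 reads. It lay wholly under 0 for 5, or 6.58%, against 15.5%, and it included 0 for 45, or 59.2%, against 67.8%. Because a deeply counted gene has a narrow interval, the shares were computed again where 200 reads or more were counted. There the interval lay above 0 for 26 of 74 members, or 35.1%, against 23.2% of all such genes, and under 0 for 4, or 5.41%, against 16.9%, and it included 0 for 44, or 59.5%, against 60%. Only Mrpl23 was at least 1.5-fold lower with an interval under 0, which is 1.32% of the 76 against 6.2% of all genes. At least 1.5-fold higher were 0 members, against 3.5% of all genes. Among genes with at least 200 reads, 0 members passed 1.5-fold in either direction, against 2.1% of all such genes lower and 1.86% higher. The log2 ratio stayed within 0.32 of 0 for 69 of the 76 members, or 90.8%, and for 83.1% of all genes with at least 200 reads. The interval held the ratio of the summed group for 61 of the 76 members, lay above it for 8 and under it for 7.

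**Figure D2:**
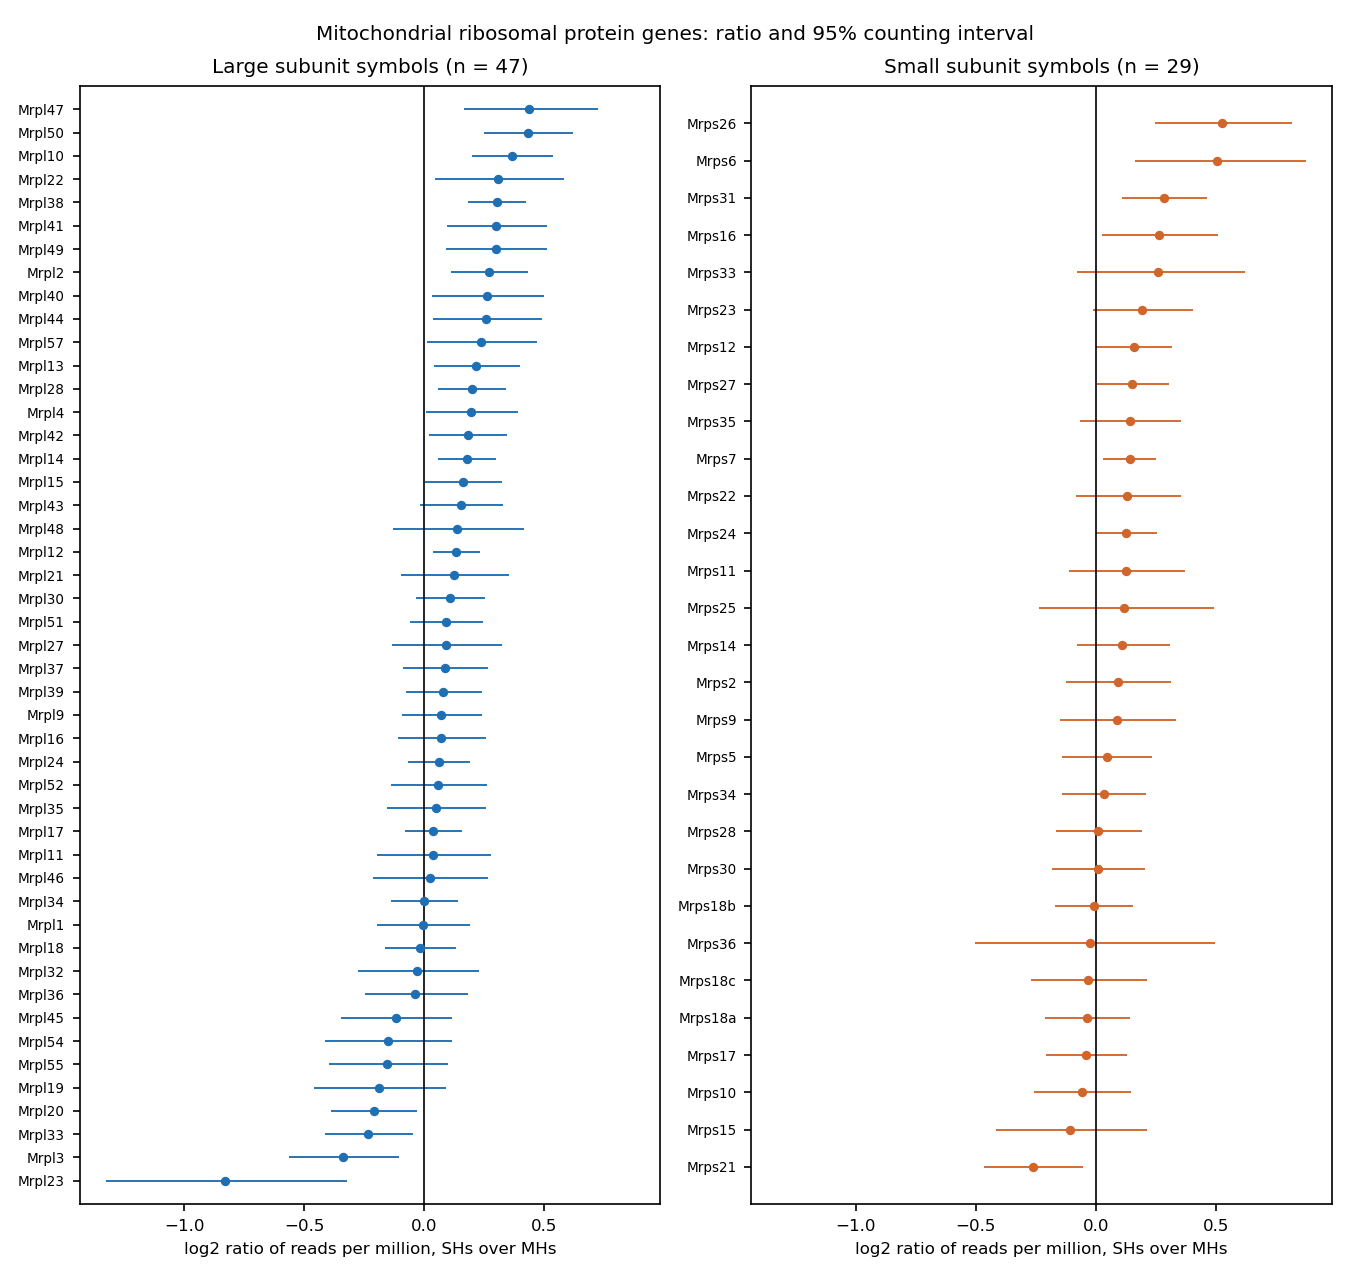
Log2 ratio of RPM in SHs over MHs (horizontal axis) for each of the 47 large subunit genes and 29 small subunit genes with at least 10 reads, where points are ratios and bars are 95% counting intervals. Most bars cross or lie just above 0, and Mrpl23 stands apart at -0.83.

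Large and small subunit genes had like ratios. The 48 large subunit genes took 16926 reads in MHs against 45680 in SHs, and their ratio was 0.11 (0.09 to 0.14). The 29 small subunit genes took 8721 and 23230 reads, a log2 ratio of 0.09 (0.06 to 0.13). Reads on large subunit genes outnumbered those on small subunit genes 1.94-fold in MHs and 1.97-fold in SHs, and the log2 ratio between these values was 0.02 with an interval of -0.02 to 0.06, which included 0. The median log2 ratio was 0.09 over 47 large subunit genes, with 12 under 0 and 35 above 0. It was 0.11 over the 29 small subunit genes, with 8 under 0 and 21 above 0. The interval lay above 0 for 18 large and 8 small subunit genes, and under 0 for 4 and 1. Of all genes with at least 10 reads, 48% had a ratio under 0 and 52% one above 0. An interval above 0 was found for 16.8% of them and one under 0 for 15.5%. Among genes with at least 200 reads, the interval lay above 0 for 39.1% of the large subunit and 28.6% of the small one. The latter was near the 23.2% of all such genes. It lay under 0 for 6.52% and 3.57%, against 16.9% of all such genes. The symbol does not always give the place in the ribosome, since Mrps30 and Mrps18a encode proteins that structures place in the large subunit. With these genes counted there, the sums were 2.19-fold apart in MHs and 2.2-fold in SHs, and the medians were 0.09 and 0.12.

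**Figure D3:**
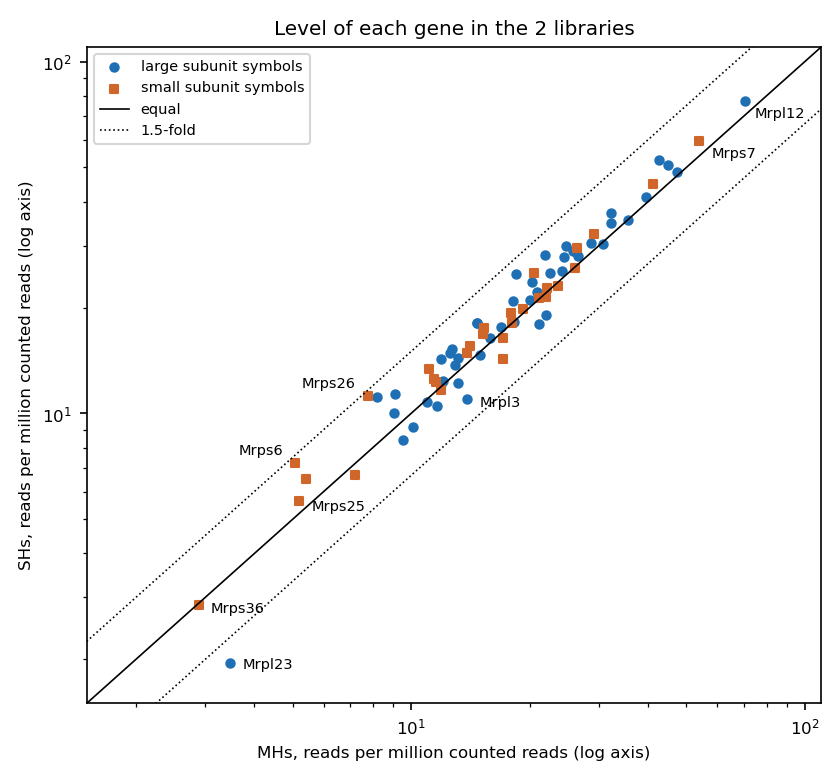
RPM of each of the 76 genes in MHs (horizontal, log axis) and SHs (vertical, log axis), large subunit symbols as circles and small ones as squares. The points follow the line of equal levels up to Mrpl12, and Mrpl23 is the only gene beyond the 1.5-fold line.

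The genes with the most reads were led by Mrpl12, a protein of the stalk to which translation factors bind. Mrpl12 had 1194 reads in MHs against 3272 in SHs, or 70.3 and 77.2 RPM, a log2 ratio of 0.14 (0.04 to 0.23). Mrps7, which binds the small ribosomal RNA, had 916 and 2521 reads, a log2 ratio of 0.14 (0.03 to 0.25). Mrpl17, at the exit of the peptide tunnel, had 805 and 2061 reads, and its ratio of 0.04 had an interval that included 0. Mrpl14, homologous to bacterial L14, had 761 and 2149 reads, a log2 ratio of 0.18 (0.06 to 0.30). Mrpl38 had 724 and 2229 reads, a log2 ratio of 0.30 (0.18 to 0.43), the highest of these 8. Mrps24 had 697 and 1900 reads, Mrpl24 had 670 and 1746, and Mrpl28 had 547 and 1568. The ratios of Mrps24 and Mrpl28 were 0.13 and 0.20, and that of Mrpl24, 0.06, had an interval that included 0. All of these 8 genes thus had ratios above 0, and the interval excluded 0 for 6.

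Levels of different genes were compared per kilobase of transcript, in RPM per kb. The median level was 14.1 in MHs and 15.2 in SHs over large subunit genes, and 11.5 and 12.96 over small subunit genes. The levels of the members' mRNAs spanned a wide range. Mrpl14 was the highest in both libraries, with 69.5 in MHs and 78.7 in SHs, followed in MHs by Mrpl34 with 58.5 and Mrpl12 with 53.4. Mrps25 was the lowest of the 76, with 0.853 in MHs and 0.929 in SHs. The order was close to the same in both libraries, with a Spearman's rho of 0.990 across the 76 genes, which share the libraries and lengths and are not independent. Of the 10 highest genes in MHs, 9 were also among the 10 highest in SHs. Levels per kb depend on the annotated length, and only 5 of the 10 highest in MHs remained so with the length of all exons in place of the median transcript. Both ends changed too. By that length Mrpl34, with 58.5 in MHs, passed Mrpl14 with 47.2. Mrpl23, with 0.712 in MHs and 0.401 in SHs, fell under Mrps25 with 0.788 and 0.858. Exons of Mrps25 also overlap those of Nr2c2 on the other strand over 4590 bases, so its count is uncertain.

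**Figure D4:**
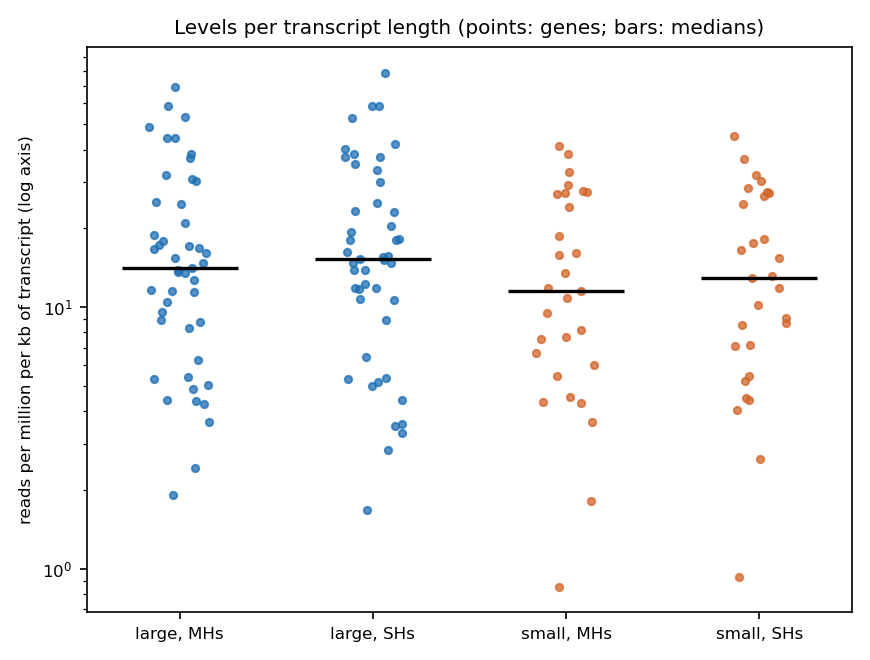
Level of each of the 76 genes in RPM per kb of transcript (vertical, log axis) by subunit symbol and library, with points for genes and bars for medians. The spread between genes, from 0.853 to 69.5 in MHs, is far wider than the distance between libraries.

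Mrpl23 was the member lowest in SHs relative to MHs. It encodes a protein at the exit of the peptide tunnel and lies on chromosome 7. MHs held 59 of its reads and SHs, although sequenced more deeply, 83, or 3.48 and 1.96 RPM, a log2 ratio of -0.83 (-1.33 to -0.32) and a 1.78-fold lower level. Of its annotated 30-base words, 14.3% also occurred in transcripts of other genes, most of them in the pseudogene Mrpl23-ps1. That pseudogene had 57 and 105 reads, a log2 ratio of -0.44 (-0.92 to 0.05), so the division of reads between the pair is uncertain. The rule by symbol left out Mrpl23-ps1 and 3 more pseudogenes, which with it held 112 reads in MHs and 214 in SHs.

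The other members under 0 beyond counting error lay closer to 0. Mrpl3, homologous to bacterial L3, had 236 and 467 reads, a log2 ratio of -0.34 (-0.56 to -0.10). Mrps21, which shares 15.04% of its words with other genes, had 291 and 606 reads, a log2 ratio of -0.26 (-0.46 to -0.05). Mrpl33 had 358 and 761 reads and a ratio of -0.23 (-0.41 to -0.05). Mrpl20, a homolog of bacterial L20, had 373 and 805 reads and a ratio of -0.21 (-0.39 to -0.03). Of these 5 it alone neither overlaps another exon nor shares over 10% of its words, and its interval included 0 under 1 of the other scalings, -0.18 (-0.36 to 0.004), with totals that leave out the 10 genes with the most reads. Next in order among genes with at least 200 reads were Mrpl19 with -0.19 and Mrpl55 with -0.15, and their intervals included 0, as did those of Mrps15 with -0.11 and Mrps10 with -0.06. Exons of Mrpl3 and Mrpl33 overlap those of another gene on the same strand, by 248 and 261 bases, and how reads in such stretches were counted is not given in the sources used here.

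At the upper end stood Mrps26 and Mrps6 of the small subunit. Mrps26 had 132 reads in MHs against 475 in SHs, a log2 ratio of 0.52 (0.25 to 0.82) and a 1.44-fold higher level. Mrps6, a homolog of bacterial S6, had 86 and 306 reads, a log2 ratio of 0.51 (0.16 to 0.87). Mrps31 followed among small subunit genes, with 348 and 1059 reads and a ratio of 0.29 (0.11 to 0.47). In the large subunit, Mrpl47 had 139 and 471 reads, a log2 ratio of 0.44 (0.17 to 0.73). Mrpl50 had 314 and 1058 reads, a ratio of 0.43 (0.25 to 0.62). Mrpl10, which holds the stalk to the ribosome, had 372 and 1197 reads, a ratio of 0.37 (0.20 to 0.54), and Mrpl22 followed with 0.31 (0.05 to 0.58). The intervals of these genes overlapped, so their order within the upper end is not resolved. Mrpl47 overlaps exons of Actl6a and Ndufb5 on the other strand over 1068 bases, and Mrps6 overlaps Gm49711 and Slc5a3 on its own strand over 464 bases. Of the 30-base words of Mrpl22, 30.3% also occurred in other genes, as did 26.04% of those of Mrpl47, 18.4% of Mrps6 and 17.8% of Mrpl10. Mrpl50 and Mrps31 overlap no annotated exon.

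Mrpl53 was listed at 0 reads in both libraries, below a floor of 3 reads, which is 0.177 RPM in MHs and 0.0708 in SHs. It is a large subunit gene of 2 exons on chromosome 6, from 83109040 to 83109939 of mm10. Of its 790 exon bases, 695 are also annotated as exon of Gm42688, a gene on the same strand for which no count was used here. How reads on the shared bases were counted is not given in the sources used here, and the part of this overlap in the count of 0 was not tested.

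Groups of proteins with a known place in the large subunit gave medians near that of all members. Their counts of intervals stand beside 16.8% above 0 and 15.5% under 0 for all genes with at least 10 reads. With at least 200 reads, these shares of all genes were 23.2% and 16.9%. The 3 stalk genes had log2 ratios of 0.37 for Mrpl10, 0.04 for Mrpl11 and 0.14 for Mrpl12, and the interval lay above 0 for Mrpl10 and Mrpl12. The 8 genes of the tunnel exit, where the nascent protein leaves towards the inner membrane, had a median of 0.07, with 3 intervals above 0 and 1 under 0. They held both the lowest member, Mrpl23, and the highest large subunit member, Mrpl47. Of the rest of this group, Mrpl44 had 0.26 (0.04 to 0.49), Mrpl39 0.08, and Mrpl45, which anchors the ribosome at the inner membrane, -0.12, the last 2 with intervals that included 0. The 5 genes of the central protuberance, a landmark at the top of the large subunit, had a median of 0.14. Of these, Mrpl38 and Mrpl40 had intervals above 0, with ratios of 0.30 and 0.26, while Mrpl18, Mrpl46 and Mrpl48 had -0.01, 0.02 and 0.14 with intervals that included 0.

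Proteins with a bacterial homolog were compared with proteins that are particular to mitochondria. The 48 genes with a homolog had a median log2 ratio of 0.07, with 17 under 0 and 31 above 0. The 28 genes without one and with at least 10 reads had a median of 0.15, with 3 under 0 and 25 above 0. The interval lay above 0 for 15 of the 48 genes with a homolog and 11 of the 28 without, against 16.8% of all genes with at least 10 reads. It lay under 0 for 5 of the 48 and 0 of the 28, against 15.5% of all genes. Of these 5, only Mrpl20 neither overlaps another exon nor shares over 10% of its words. The difference between these classes was not tested.

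Mammals have 3 homologs of bacterial S18, encoded by Mrps18a, Mrps18b and Mrps18c, which take different places in the ribosome. Mrps18a had 373 reads in MHs against 907 in SHs, a log2 ratio of -0.04 (-0.21 to 0.14). Mrps18b had 443 and 1099 reads, a ratio of -0.01 (-0.17 to 0.15). Mrps18c had 202 and 493 reads, a ratio of -0.03 (-0.27 to 0.21). The difference in RPM was thus less than counting error for each of the 3 genes. Mrps30 had 306 and 768 reads and a ratio of 0.01 (-0.18 to 0.20). Mrps36, whose protein is now assigned to the oxoglutarate dehydrogenase complex, had 49 and 121 reads, a ratio of -0.02 (-0.50 to 0.49).

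Subunits that carry other symbols fell in the same range. Of these 6 genes, Ict1, a peptidyl-tRNA hydrolase built into the large subunit, had 288 reads in MHs against 862 in SHs, a log2 ratio of 0.26 (0.07 to 0.46). Aurkaip1 of the small subunit had 645 and 1777 reads, a ratio of 0.14 (0.01 to 0.28). Ptcd3, a pentatricopeptide repeat protein of the small subunit, had 429 and 920 reads, a ratio of -0.22 (-0.39 to -0.05). Dap3, a GTP-binding subunit, had 0.07, Gadd45gip1 0.07 and Chchd1 -0.20, each with an interval that included 0. The median of the 6 was 0.07.

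Genes that build and serve the mitochondrial ribosome had small ratios too. The 23 assembly factors had a median log2 ratio of 0.06, with 2 intervals above 0 and 1 under 0. Of all genes with at least 10 reads, 16.8% had an interval above 0 and 15.5% one under 0. Tfb1m, which methylates the small ribosomal RNA, had 0.10, the GTPase Noa1 0.18 and Eral1, a chaperone of the small ribosomal RNA, 0.15, all with intervals that included 0. Mrm1, a methyltransferase of the large ribosomal RNA, was past 1.5-fold with 35 reads in MHs against 183 in SHs, a log2 ratio of 1.05 (0.54 to 1.63). Next to it stood Ngrn with 0.32 (0.07 to 0.58), and at the lower end Mterf3 had -0.25 (-0.48 to -0.003) and Fastkd2 -0.22 (-0.46 to 0.04).

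Of the 16 translation factors and their partners, 6 had an interval above 0 and 0 had one under 0, with a median of 0.10. Over all genes with at least 10 reads these shares were 16.8% and 15.5%, and with at least 200 reads 23.2% and 16.9%. Of the elongation factors, 2 had intervals above 0, Gfm1 with 846 and 2602 reads and a log2 ratio of 0.30 (0.19 to 0.42), and Tufm with 630 and 1835 reads and 0.22 (0.09 to 0.36), whereas Tsfm had 0.21 (-0.04 to 0.46). Lrpprc, which stabilises mitochondrial mRNAs, had 1725 and 5012 reads, a ratio of 0.22 (0.14 to 0.30). Oxa1l, which inserts nascent proteins into the inner membrane, had 0.21 (0.07 to 0.36), Taco1 0.24 (0.03 to 0.46) and Letm1 0.11 (0.02 to 0.21). The initiation factors Mtif2 and Mtif3 had 0.05 and -0.06, and Gfm2 and Guf1 had -0.11 and -0.21, all with intervals that included 0.

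The 17 mitochondrial tRNA synthetases had a median of 0.05, with 5 intervals above 0 and 1 under 0, beside 16.8% and 15.5% of all genes with at least 10 reads. Rars2 had the lowest ratio, -0.39 (-0.70 to -0.08), followed by Wars2 with -0.23 and an interval that included 0, and Tars2 had 0.33 (0.15 to 0.52). Lars2 stood apart in level and ratio, with 64867 reads in MHs against 255985 in SHs, a log2 ratio of 0.66 (0.65 to 0.67). Its level was 3820 RPM in MHs and 6044 in SHs, whereas Iars2, the next in level, had 53.8 and 52.2. The count of this single gene exceeded that of all 77 members together in either library. How reads with several hits entered it is not given, and whether all of its reads come from Lars2 mRNA was not tested.

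The members were set beside the cytosolic ribosomal proteins and the nuclear genes of the respiratory chain. Most complexes of this chain, though not that of the Sdh genes, take up products of the mitochondrial ribosome. The 89 cytosolic ribosomal protein genes accounted for 0.736% of reads in each library, a log2 ratio of 0.00 (-0.01 to 0.01), and their median over 86 genes was 0.00, with 42 under 0 and 44 above 0. The 83 respiratory chain genes took 0.863% and 0.954%, a log2 ratio of 0.14 (0.14 to 0.15), and their median over 77 genes was 0.13, with 21 under 0 and 56 above 0. Ndufb4 was the lowest of them with at least 200 reads, -0.50 (-0.77 to -0.22), and Cox7a2l followed with -0.18, while Atp5e had 0.42 (0.35 to 0.48) and Atp5g2 0.40 (0.11 to 0.70). Of the cytosolic genes, Rpl22l1 and Rps20 had -0.40 and -0.34, and Rps12l1 and Rplp2 0.46 and 0.45. The interval of the summed mitochondrial ribosomal proteins, 0.09 to 0.13, thus lay above that of the cytosolic ones and under that of the respiratory chain. These intervals cover no variation between animals or preparations.

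**Figure D5:**
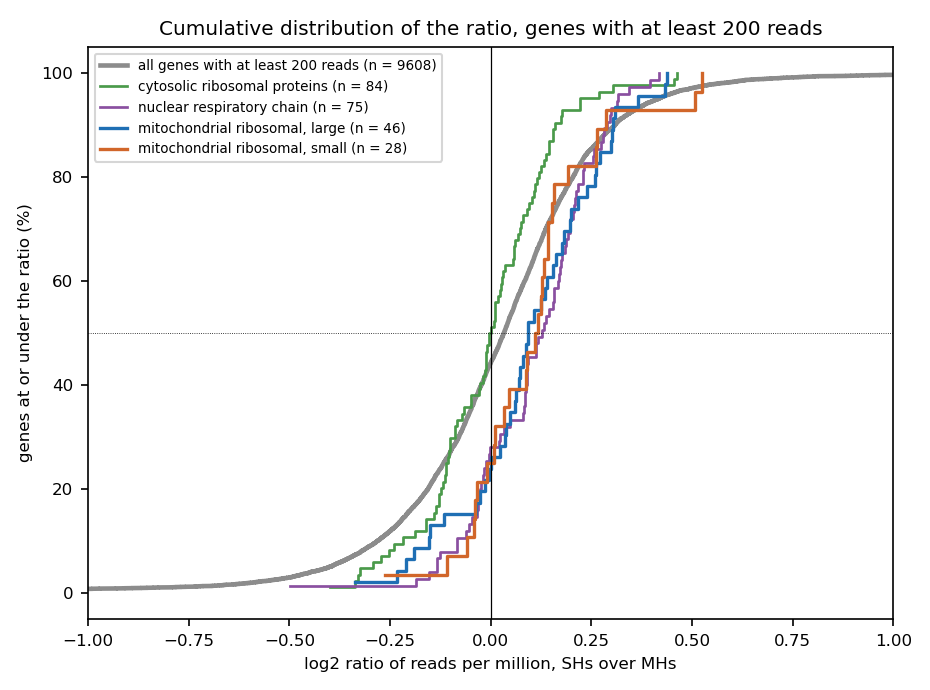
Cumulative share of genes (vertical axis, in %) at or under a given log2 ratio of SHs over MHs (horizontal axis), for genes with at least 200 reads. The curves of both mitochondrial ribosomal subunits and of the respiratory chain run to the right of the cytosolic ribosomal proteins over most of their course.

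The RNAs with which these proteins work were counted in the same libraries. The ribosomal RNAs mt-Rnr1 and mt-Rnr2 had log2 ratios of 0.25 (0.25 to 0.26) and 0.13 (0.13 to 0.14), although poly(A) selection need not keep them in proportion. Of the 13 mRNAs of the mitochondrial genome, 9 had an interval above 0 and 3 under 0, with a median of 0.32. Among all genes with at least 200 reads, 23.2% had an interval above 0 and 16.9% one under 0. The highest were mt-Nd1 with 0.70 and mt-Cytb with 0.63, and the lowest were mt-Nd5 with -0.28 and mt-Co3 with -0.08. By the sum of reads, which mt-Co1 dominated, the log2 ratio was 0.04 (0.04 to 0.05), so that median and sum differed in size.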

How the data were processed

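Reads per gene symbol came from 1 library of SHs and 1 of MHs. By the study's methods, reads were quality-trimmed and mapped to mm10 in CLC Genomics Workbench, with several hits per read allowed, and expression was given as RPKM. The deposited values used here are whole, unnormalized counts, and how reads with several hits, overlapping genes or strand entered them is not given in the sources used here. Ratios and intervals were computed with scipy 1.17.1 under Python 3.11.15. Lists were summarised over genes with 10 or more reads in all. Each group held 1 library, so no p-value was computed. The rule for members uses symbols only, but it and the lists were chosen with earlier results of these data known. By rule, the text names the 8 most-read members, the 6 ratios at either end with at least 200 reads (3 per subunit), members past 1.5-fold or under 10 reads, the structural groups and S18 homologs, subunits of other symbols, and the 2 ratios at either end of each related list. Mrps36, Mrpl34, Mrps25, Tsfm, Letm1, Iars2, the pseudogenes and the mitochondrial ribosomal RNAs were named after their values were seen. Positions and overlaps came from GENCODE M21 of mm10. Exons of other genes overlapped 32 of the 77 members, and 29 shared over 10% of their 30-base words with other genes, so these counts are uncertain. Promoters came from RefSeq. Alternatives used edgeR 4.0.16 (TMM), DESeq2 1.42.0 (size factors), other read minimums, added reads, thresholds and member sets. The calculation was tested on simulated counts.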

Additional observations from a re-analysis of the deposited data

How the results depend on the processing

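No paired analysis was possible because each group held a single library, so none could be left out either. With TMM, DESeq2's size factors or totals without the 10 genes with the most reads, all ratios shifted by 0.01, 0.01 and 0.03 on the log2 scale. Under the last, the summed log2 ratio was 0.14 for all members and 0.15 for the large subunit, both still above 0. The median of all members lay between 0.09 and 0.12 over all alternatives. All 26 members with an interval above 0 kept it under the 3 scalings, as did 4 of the 5 under 0. The exception was Mrpl20 with totals without the 10 genes, with -0.18 (-0.36 to 0.004). At least 1.5-fold lower was 1 member. With a lower threshold, 0.32 on the log2 scale, 2 members were lower and 5 higher. The shares of all genes past this threshold are not given here. With a threshold of 2-fold, 0 were lower, and with a minimum of 200 reads, also 0, since Mrpl23 has fewer reads. The 37 members that neither overlap another exon nor share over 10% of their words were chosen after the data were seen. They had 12 intervals above 0 and 1 under 0, or 32.4% and 2.7%, where fewer genes enter the counts. Over all genes with at least 10 reads these shares were 16.8% and 15.5%, and with at least 200 reads 23.2% and 16.9%. A few values close to 0 changed sign. The median of the cytosolic ribosomal proteins was -0.00 without a read minimum and with one of 200 reads. Mrps18b was at 0.00 with TMM and with DESeq2's size factors and at 0.02 without the 10 genes, where Mrpl18 was also at 0.02. Members with a ratio under 0 numbered 20 as reported, 18 with TMM or DESeq2's size factors, and 15 without the 10 genes. Not every member was followed singly under the alternatives, and no other gene or median that was followed changed sign. Depth limits members with few reads, such as Mrps36.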
